A study of Rattus norvegicus with 12 samples.

Results

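The genes described here are 9 genes of RNA-binding proteins that are tied to amyotrophic lateral sclerosis (ALS) or to stress granules: Tardbp, Ewsr1, Taf15, Matr3, Tia1, Tial1, G3bp1, G3bp2 and Atxn2. They were taken by gene name from 32883 genes in the deposited tables, each name matched 1 row, and all 9 had enough counts to be tested. The measurements came from 1464R cells, a single immortalized line of adult rat neural stem cells that had been differentiated for 4 days with retinoic acid. RNA sequencing was performed on 12 libraries, 3 in each of 4 groups, all sampled 48 h after a switch to medium without serum.

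Control cells received neither virus nor drug. The Eda group received edaravone, a free radical scavenger used to treat ALS, at 50 μmol/L from the medium switch onward. The TDP-43 + EA group received adenovirus carrying human TDP-43 at the medium switch and ethacrynic acid (EA), a compound that depletes glutathione, at 20 μmol/L from 24 h after it. The TDP-43 + EA + Eda group received the virus and EA in the same way, together with edaravone at 50 μmol/L from the switch. The sample labels name a virus for the C-terminal fragment of TDP-43, whereas the study's methods name viruses for the full-length and the C-terminal protein, each fused to the red fluorescent protein DsRed. Virus and EA were always given together in the groups analysed here, and no group with an empty virus was analysed here, so the effects of TDP-43, of infection and of EA cannot be told apart. The labels number the samples of a group from 1 to 3. The study describes its RNA sequencing as spread over separate experiments, and the sources used here do not say which experiment a number marks.

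TDP-43, the protein of Tardbp, binds RNA in the nucleus, regulates splicing and is the main component of the inclusions found in motor neurons of most people with ALS. Ewsr1 and Taf15 encode FET proteins, Matr3 encodes matrin 3, a protein of the nuclear matrix, and variants or aggregates of these proteins have been linked to ALS. Stress granules are condensates of untranslated mRNA and RNA-binding proteins that form in the cytoplasm when translation initiation is blocked. G3bp1 and G3bp2 nucleate them, Tia1 and Tial1 join them through prion-like domains, and Atxn2, the gene of ataxin-2, encodes a component that can modify the toxicity of TDP-43.

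Library totals lay between 17418137 and 24642941 counts in 11 libraries and at 43905611 in replicate 1 of TDP-43 + EA + Eda. The labels describe the differentiated cells as resembling motor neurons. Of the 5 motor neuron markers checked, 3 (Mnx1, Slc5a7 and Slc18a3) were at 0 TPM in all 12 libraries and the summed level of the 5 was at most 0.279 TPM in any library. The 10 oligodendrocyte lineage markers summed to between 32118 and 40260 TPM for Control and between 30115 and 35310 for Eda. The sums were between 15103 and 19221 TPM for TDP-43 + EA and between 12217 and 16402 for the group that also had edaravone, and all 10 had fallen in TDP-43 + EA against Control. Some markers of other cell types were present as well. In Control, general neuron markers summed to between 385 and 470 TPM and astrocyte markers to between 294 and 422. Neural stem cell markers summed to between 547 and 721 TPM there. Not all markers of these sets contributed. Under 1 TPM in all 12 libraries were 4 of the 6 astrocyte markers (Slc1a3, Aldh1l1, Aqp4 and Gja1). The same held for 2 of the 8 neuron markers (Stmn2 and Snap25) and 2 of the 6 stem cell markers (Pax6 and Prom1). The cells therefore did not show the defining markers of motor neurons, and the part of the shift in oligodendrocyte markers in the results below was not tested. In such bulk RNA, fewer cells of a type and less RNA per cell cannot be told apart.

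In Control, the mean level per transcript length (TPM, mean ± SD, n = 3) was highest for Ewsr1 at 102.3 ± 3.36 and Matr3 at 94.5 ± 5.37, whose ranges overlapped. G3bp1 at 76.2 ± 3.37 and G3bp2 at 70.0 ± 4.50 followed, again with overlapping ranges. Tardbp stood below them at 56.7 ± 3.49 TPM, then Atxn2 at 42.0 ± 5.05, Tia1 at 18.5 ± 0.930, Tial1 at 10.3 ± 1.17 and Taf15 at 5.90 ± 0.467, and none of these ranges overlapped that of the next gene. In TDP-43 + EA + Eda the order of TPM levels was Tardbp, Ewsr1, G3bp2, G3bp1, Matr3, Atxn2, Tial1, Tia1 and Taf15, with overlapping ranges between G3bp1 and Matr3 and between Tial1 and Tia1. Thus Tardbp moved from the fifth to the first place, and G3bp2 passed both G3bp1 and Matr3.

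The first comparison, TDP-43 + EA against Control, asks how the genes moved with the combined stress. Tardbp, Ewsr1, Tial1, G3bp1 and G3bp2 rose, and none of the 9 fell. These are 5 of 9 members risen, against 19.6% of the 13230 genes tested risen and 18.7% fallen (edgeR quasi-likelihood test, Benjamini-Hochberg adjusted p of at most 0.05 over all genes tested). Tardbp is among these 5. Since the virus carried TDP-43, a rise in this row was built into the design. It does not show how the cells' own Tardbp moved, which was not tested. In all later counts of members, too, the Tardbp row includes transgene reads in the groups with virus. The median log2 fold change of the 9 was 0.44, that of all genes tested 0.00, and the members were not chosen at random, so this difference is a description. In counts per 1000000 (CPM, scaled with TMM factors), all 3 TDP-43 + EA libraries lay above all 3 Control libraries for 6 of the 9 members, against 25.6% of genes tested. Only Tardbp rose at least 2-fold, against 7.49% of genes tested.

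Tardbp (ENSRNOG00000012455, chromosome 5 from 165432095 to 165442048 of Rnor_6.0, minus strand) stood at 37.0, 39.2 and 41.1 CPM in Control replicates 1 to 3 and at 34.5, 36.6 and 38.7 CPM in Eda. It stood at 1795, 1245 and 1086 CPM in TDP-43 + EA and at 3671, 2044 and 2000 CPM in TDP-43 + EA + Eda. Every library with virus lay far above every library without it, and replicate 1 was the highest in both virus groups. With TDP-43 + EA the gene rose 35.2-fold (log2 fold change 5.14, SE 0.25, edgeR adjusted p = 2.40e-09) and took between 0.111% and 0.186% of all counts there, against 0.00391% to 0.00426% in Control. Since the virus carried human TDP-43, reads of the transgene that align to the rat gene are counted in this row, and gene-level values do not separate them from reads of the cells' own mRNA.

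**Figure D1:**
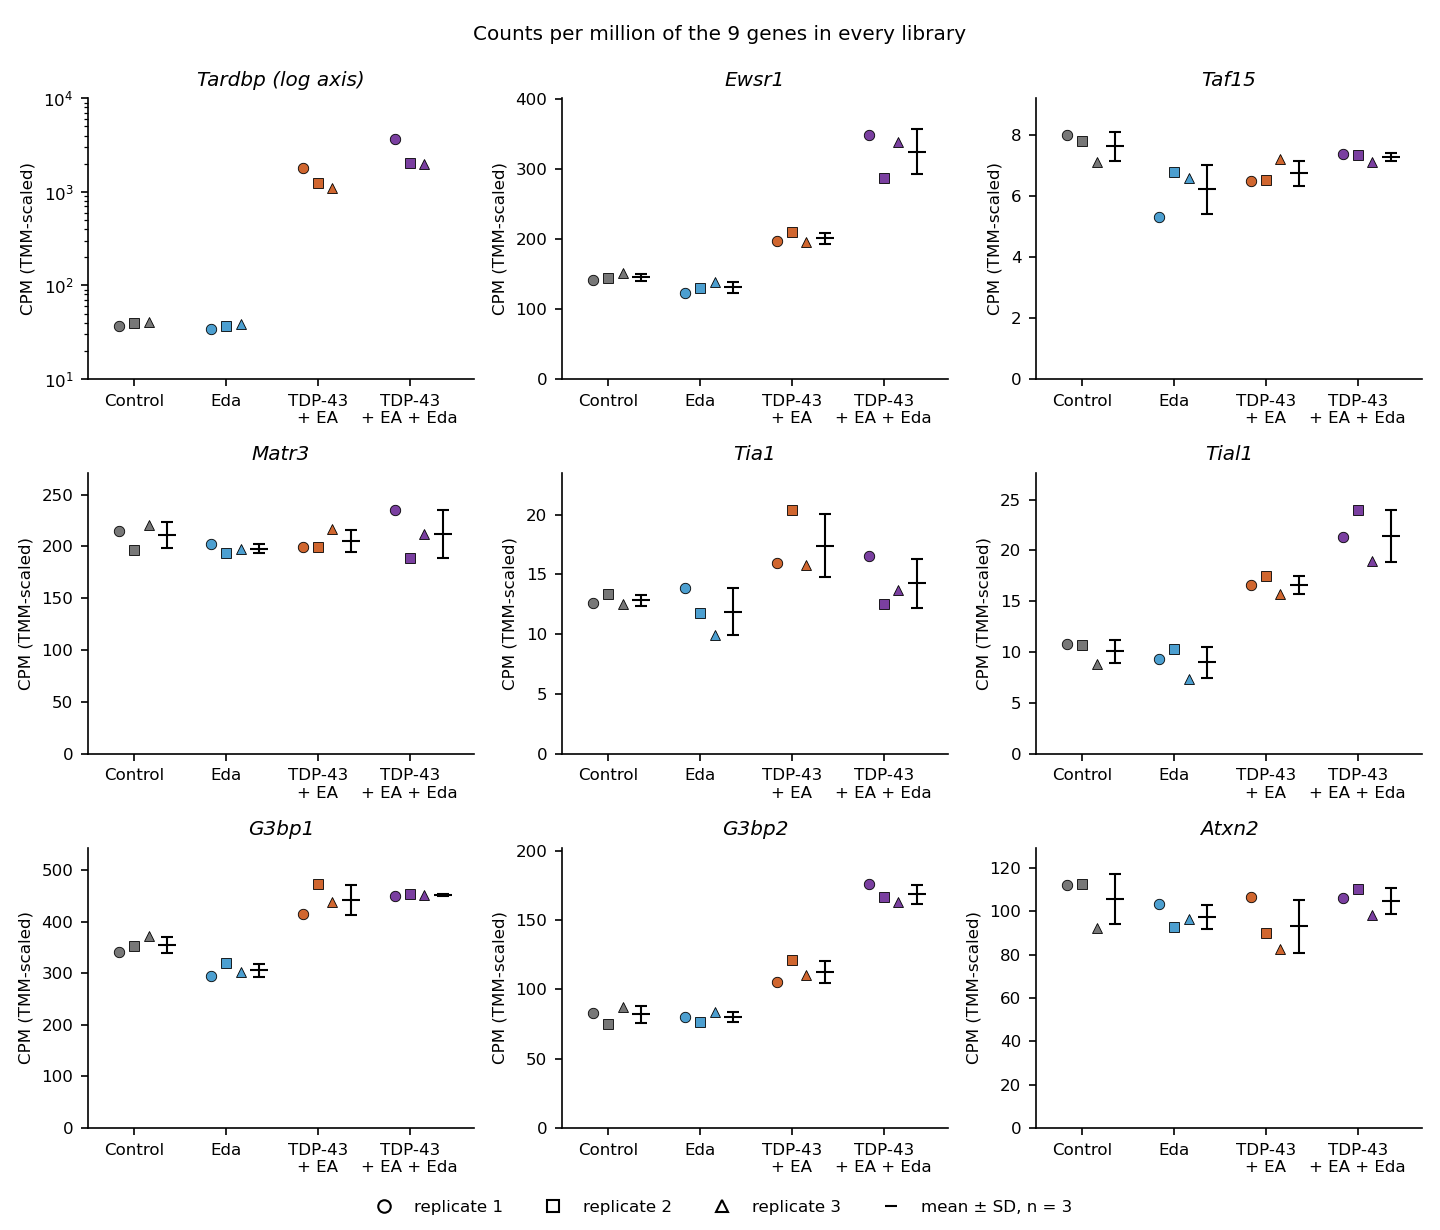
CPM of the 9 genes in each library (TMM-scaled, vertical axes from 0 except Tardbp, which has a log axis), by group, with the replicate number as the symbol and the mean ± SD (n = 3) beside the points except for Tardbp. Tardbp lies at 34.5 to 41.1 CPM without virus and at 1086 to 3671 CPM with it. Ewsr1 and G3bp2 climb from Control through TDP-43 + EA to TDP-43 + EA + Eda without overlap, while Matr3 and Atxn2 overlap in all groups.

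Ewsr1 (chromosome 14 from 85322296 to 85350948, minus strand), an RNA-binding protein of the FET family, stood at 141.0, 144.6 and 150.8 CPM in Control and at 196.7, 210.4 and 195.9 CPM in TDP-43 + EA. The groups did not overlap, and the gene rose 1.38-fold (log2 fold change 0.47, SE 0.08, edgeR adjusted p = 5.36e-04). Its family member Taf15 (chromosome 10 from 70689863 to 70721892, plus strand), a subunit of transcription complexes, was the least abundant member, with 110 to 268 estimated counts per library. It stood at 8.0, 7.8 and 7.1 CPM in Control and at 6.5, 6.5 and 7.2 CPM in TDP-43 + EA. These groups overlapped in CPM, but by TPM the TDP-43 + EA libraries lay below Control (4.645 to 5.128 against 5.376 to 6.269). The fitted change was −0.18 (SE 0.18, edgeR adjusted p = 0.46), with an approximate 95% interval from −0.53 to 0.17 on the log2 scale (1.96 SE on each side).

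Matr3 (chromosome 18 from 28361283 to 28390717, plus strand) did not pass the test either. It stood at 214.9, 196.9 and 220.9 CPM in Control and at 199.3, 198.9 and 217.0 CPM in TDP-43 + EA. With a log2 fold change of −0.04 and an interval from −0.21 to 0.13, a change of the size seen for Ewsr1 lay outside the interval of Matr3. Atxn2 (chromosome 12 from 40266662 to 40332612, minus strand) stood at 112.3, 112.5 and 92.3 CPM in Control and at 106.6, 89.9 and 82.8 CPM in TDP-43 + EA. The groups overlapped and the log2 fold change of −0.18 (interval −0.39 to 0.02, edgeR adjusted p = 0.19) was not past the threshold.

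Both genes that nucleate stress granules rose with TDP-43 + EA. G3bp1 (chromosome 10 from 40812858 to 40846252, plus strand) stood at 340.5, 353.1 and 371.5 CPM in Control and at 414.9, 472.7 and 437.2 CPM in TDP-43 + EA, a log2 fold change of 0.31 (SE 0.07, edgeR adjusted p = 0.0036). G3bp2 (chromosome 14 from 17492081 to 17520792, plus strand) stood at 83.2, 74.9 and 87.5 CPM in Control and at 105.4, 121.0 and 110.5 CPM in TDP-43 + EA, a log2 fold change of 0.46 (SE 0.08, edgeR adjusted p = 6.21e-04). Neither gene's stressed libraries overlapped with Control.

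Tia1 and Tial1 encode related proteins that silence translation and enter stress granules. Tial1 (chromosome 1 from 199844859 to 199865548, minus strand) stood at 10.7, 10.6 and 8.8 CPM in Control and at 16.6, 17.5 and 15.7 CPM in TDP-43 + EA, without overlap, and rose 1.65-fold (log2 fold change 0.72, SE 0.16, edgeR adjusted p = 0.0029). Tia1 (chromosome 4 from 118207862 to 118235218, plus strand) stood at 12.6, 13.4 and 12.5 CPM in Control and at 15.9, 20.4 and 15.8 CPM in TDP-43 + EA. Its groups did not overlap either, but the log2 fold change of 0.44 (SE 0.17, edgeR adjusted p = 0.054) missed the threshold, and 5 of 18 alternative analyses placed it at or under 0.05, among them the one with the replicate number as a block (adjusted p = 0.047).

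The second comparison sets TDP-43 + EA + Eda beside TDP-43 + EA and asks what edaravone changed in the stressed cells. Tardbp, Ewsr1 and G3bp2 rose further, and none of the 9 fell. These were 3 of 9 members risen, against 15.4% of genes tested risen and 15.0% fallen, with a median log2 fold change of 0.17 over the members and −0.02 over all genes. No member passed the test with a 2-fold change, against 1.9% of genes tested upward, and the 3 TDP-43 + EA + Eda libraries lay above the 3 TDP-43 + EA libraries in CPM for 4 of the 9 members, against 19.5% of genes tested.

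Ewsr1 stood at 348.9, 288.0 and 338.7 CPM in TDP-43 + EA + Eda and rose over the cells without edaravone by 0.69 on the log2 scale (SE 0.08, edgeR adjusted p = 5.40e-05). G3bp2 stood at 175.8, 166.3 and 162.9 CPM and rose 1.5-fold (log2 fold change 0.58, SE 0.08, edgeR adjusted p = 1.71e-04). Both genes thus stood higher in every TDP-43 + EA + Eda library than in any library of the other 3 groups. Tardbp rose 1.87-fold (log2 fold change 0.90, SE 0.21, edgeR adjusted p = 0.0044), but without replicate 1 of TDP-43 + EA + Eda, which was also the deepest library, the log2 fold change was 0.56 (edgeR adjusted p = 0.018). By TPM the Tardbp ranges overlapped, at 1490 to 2370 without edaravone and 2292 to 4057 with it, and limma on TPM of every gene listed did not call it (adjusted p = 0.17).

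G3bp1 did not move with G3bp2 in this comparison. It stood at 449.0, 453.5 and 451.3 CPM in TDP-43 + EA + Eda, within the range of TDP-43 + EA, with a log2 fold change of 0.03 and an interval from −0.11 to 0.18. Tial1 stood at 21.3, 24.0 and 18.9 CPM, above all 3 TDP-43 + EA libraries, yet its log2 fold change of 0.37 (SE 0.16, edgeR adjusted p = 0.10) missed the threshold, whereas DESeq2 gave an adjusted p of 0.039. Tia1 stood at 16.5, 12.5 and 13.7 CPM and overlapped with TDP-43 + EA, with a log2 fold change of −0.28 (SE 0.17, edgeR adjusted p = 0.24).

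Taf15 stood at 7.4, 7.3 and 7.1 CPM in TDP-43 + EA + Eda, Matr3 at 235.5, 189.1 and 211.4 CPM, and Atxn2 at 105.9, 110.0 and 98.3 CPM. All 3 genes overlapped with TDP-43 + EA, and their log2 fold changes lay between 0.05 and 0.17, none past the threshold. TPM is bound to the sum over all genes. By TPM, all 3 TDP-43 + EA + Eda libraries lay below all TDP-43 + EA libraries for G3bp1, Matr3, Tia1 and Taf15. The share of all genes that did so by TPM was not counted. With limma on log2(TPM + 1), 4280 of the 13230 genes tested were called fallen in this comparison. The median log2 fold change of all genes tested was −0.21 in that setting.

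**Figure D2:**
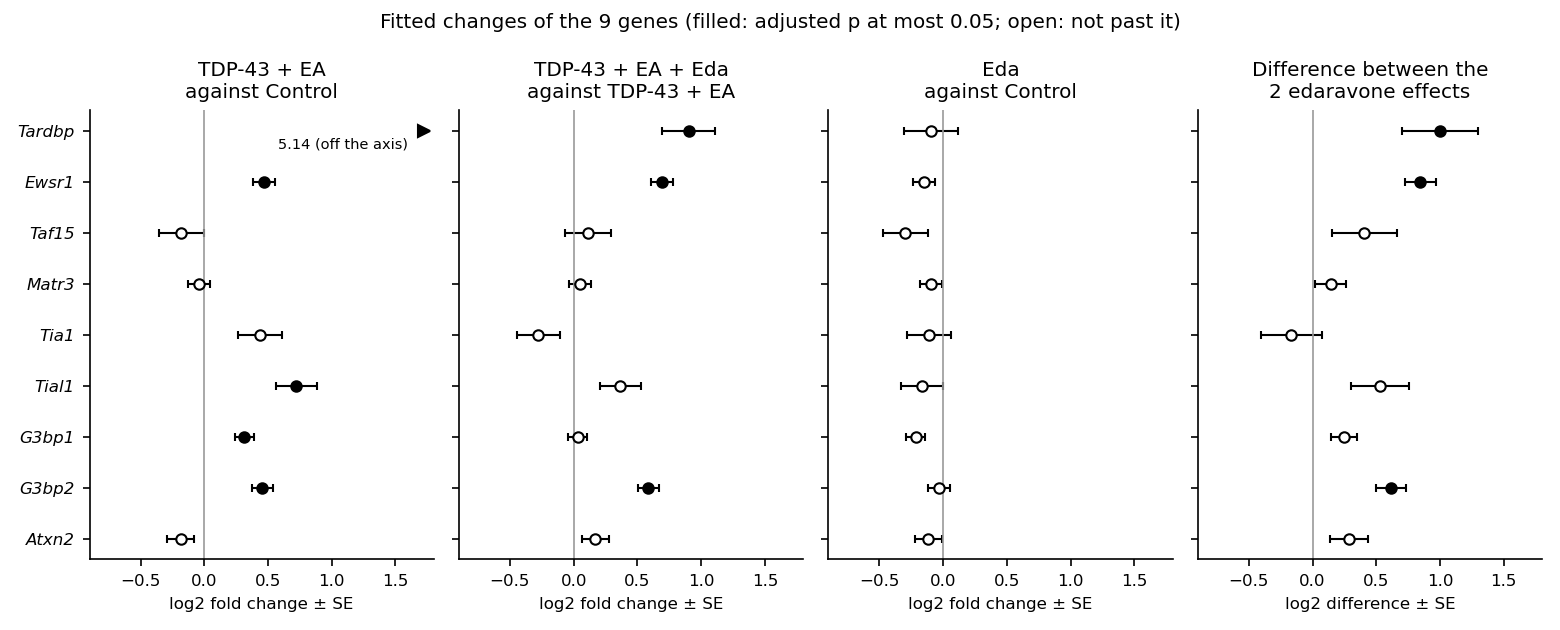
Fitted log2 changes ± SE of the 9 genes for TDP-43 + EA against Control, edaravone in cells with TDP-43 + EA, Eda against Control, and the difference between the edaravone effects with and without TDP-43 + EA (edgeR, all 12 libraries in 1 fit; filled points have an adjusted p of at most 0.05 over all genes tested). The change of Tardbp in the first panel, 5.14, lies beyond the axis and is marked by a triangle. Filled points are 5, 3, 0 and 3 in the 4 panels.

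These directions depend on how libraries are scaled, because the TMM factors were 0.829 to 0.860 in the TDP-43 + EA + Eda libraries and 1.02 to 1.10 in the other 9. With library totals alone, the median log2 fold change of all genes for edaravone in the stressed cells was −0.30, and the genes called changed from 2038 risen and 1989 fallen to 816 risen and 4516 fallen. On that scale Matr3 (−0.23), G3bp1 (−0.25) and Tia1 (−0.56) were called fallen, while Tardbp, Ewsr1 and G3bp2 were still called risen. Relative to the median of all genes, the changes hardly moved over 5 scalings (TMM, RLE, upper quartile, library totals, and TPM with limma). On this relative scale Ewsr1 lay 0.65 to 0.71 above the median, G3bp2 0.54 to 0.60, Tardbp 0.83 to 0.92 and Tial1 0.31 to 0.39 above it, G3bp1 between −0.01 and 0.05, and Tia1 between −0.27 and −0.26. Every statement that Tia1, G3bp1, Taf15, Matr3 or Atxn2 moved or did not move with edaravone in stressed cells is therefore one relative to the other genes.

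**Figure D3:**
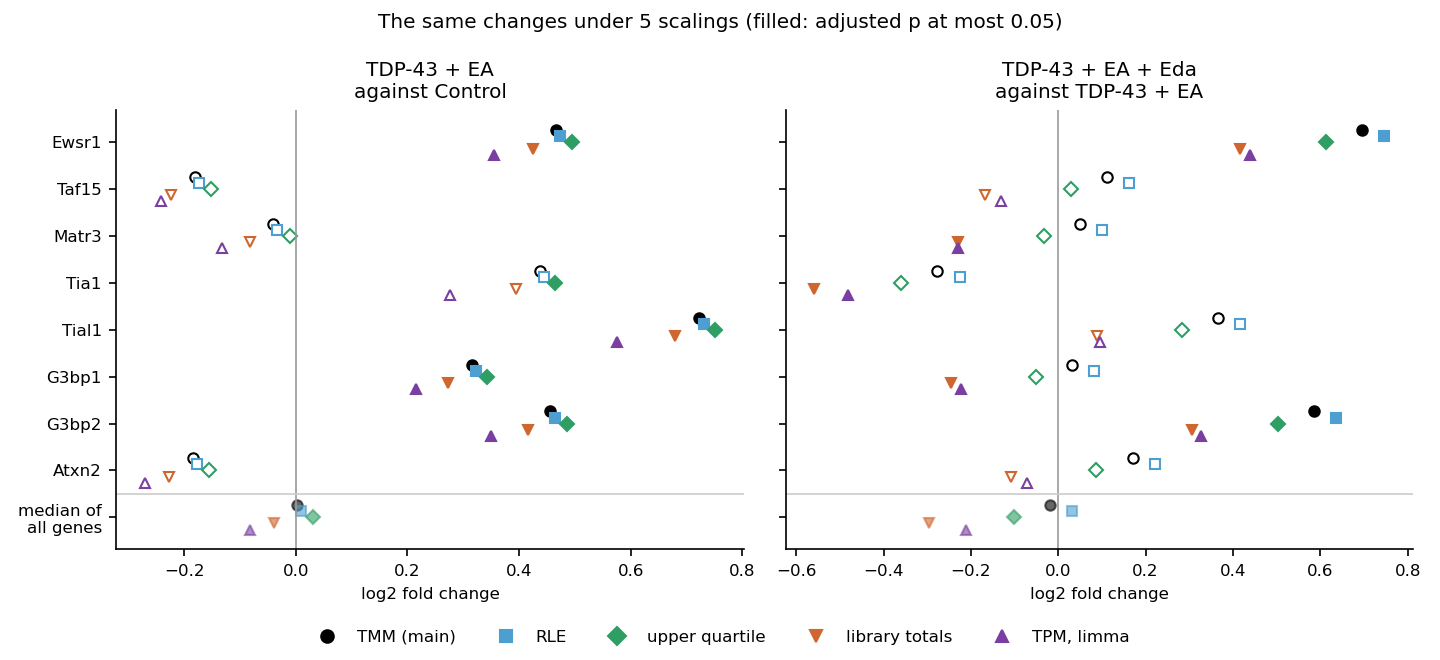
Log2 fold changes of 8 genes (Tardbp left out) and the median of all genes tested, under 5 scalings, for TDP-43 + EA against Control and for edaravone in cells with TDP-43 + EA (filled symbols of the genes have an adjusted p of at most 0.05). In the second panel the symbols for library totals and TPM shift to the left together with the median of all genes, which lies at −0.30 for library totals. Ewsr1 and G3bp2 stay to the right of 0 under all 5 scalings, and Matr3, G3bp1, Taf15 and Atxn2 change sign.

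Against Control, the TDP-43 + EA + Eda group had 5 of 9 members risen, against 27.1% of genes tested, and none fallen, against 30.4%. In CPM 5 of the 9 lay above all Control libraries, against 28.9% of genes tested. By TPM, Taf15, Matr3 and Atxn2 lay below all Control libraries, and the share of all genes that did so by TPM was not counted. Tardbp (65.8-fold), Ewsr1 (2.24-fold), Tial1 (2.13-fold) and G3bp2 (2.06-fold) rose at least 2-fold, against 12.6% of genes tested that passed both thresholds upward. Their log2 fold changes were 6.04 (SE 0.26), 1.16 (SE 0.09), 1.09 (SE 0.16) and 1.04 (SE 0.08). The fifth member, G3bp1, rose 1.27-fold on the TMM scale (log2 fold change 0.35, SE 0.07, edgeR adjusted p = 9.79e-04), but its TPM overlapped with Control, at 74.1 to 77.1 against 72.5 to 79.1, and its log2 fold change was 0.03 with library totals. This comparison shares its libraries with the other ones, so its values are no further evidence for them.

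Edaravone without virus and EA left the 9 genes without a call. In Eda against Control, 0 of 9 members passed the test, against 0.0% of genes tested, while 539 of 13230 genes had an unadjusted p under 0.05 and DESeq2 called 5 genes higher and 3 lower. All 9 fitted changes were below 0, from −0.30 for Taf15 to −0.03 for G3bp2. The median of all genes tested was −0.006, and the share of them below 0 was not counted. The signs of Tia1 and G3bp2 changed in some alternatives given below. The lowest unadjusted p belonged to G3bp1 (log2 fold change −0.22, interval −0.36 to −0.07, unadjusted p = 0.011, edgeR adjusted p = 1.0), which stood at 294.0, 319.7 and 303.3 CPM in Eda, below all 3 Control libraries. Ewsr1 (123.3, 130.5 and 139.2 CPM) and Taf15 (5.3, 6.8 and 6.6 CPM) also lay below all Control libraries, so that 3 of 9 members did in CPM, against 7.06% of genes tested. By TPM the Ewsr1 ranges overlapped, at 90.2 to 99.4 in Eda and 98.4 to 104.5 in Control.

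The difference between the edaravone effects with and without TDP-43 + EA was tested as an interaction. It was above 0 past the threshold for Tardbp, Ewsr1 and G3bp2, 3 of 9 members against 8.42% of genes tested in that direction. For no member was it below 0 past the threshold, against 7.04% of genes tested. For Ewsr1 the difference was 0.85 on the log2 scale (SE 0.12, edgeR adjusted p = 6.74e-04), past the threshold in all 22 alternatives, with a range of 0.54 to 0.93. For G3bp2 it was 0.62 (SE 0.12, edgeR adjusted p = 0.0038), and past the threshold in 18 of 22 alternatives. Those that missed it were library totals (0.31, adjusted p = 0.053) and limma on TPM (adjusted p of 0.059, 0.059 and 0.11 over the 3 versions). For Tardbp it was 1.00 (SE 0.30, edgeR adjusted p = 0.035), but it was past the threshold in only 7 of 22 alternatives. It was no longer called without any one of the 6 libraries of Control and Eda, without replicate 2 or 3 of TDP-43 + EA, or without replicate 1 of TDP-43 + EA + Eda, where it was 0.65 (edgeR adjusted p = 0.060, range over left-out libraries 0.013 to 0.088). The log2 values of the other 6 lay between −0.17 for Tia1 and 0.53 for Tial1. For Tardbp, the edaravone effect with virus was measured on reads that include the transgene, and the effect without virus on the cells' own gene. The Tardbp interaction therefore does not show that edaravone acted differently on the same transcripts.

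Ratios between related genes within a library do not depend on how libraries are scaled. The TPM ratio of G3bp1 to G3bp2 was 1.03, 1.18 and 1.07 in Control and 0.926, 1.05 and 0.908 in Eda. It was 0.997, 0.985 and 0.991 in TDP-43 + EA and 0.642, 0.688 and 0.694 in TDP-43 + EA + Eda. Both genes were thus of similar TPM in the 9 libraries of the first 3 groups, and G3bp2 was the more abundant in all 3 libraries of TDP-43 + EA + Eda, which lay below every other library. Between TDP-43 + EA + Eda and TDP-43 + EA the ratio fell by 0.56 on the log2 scale (SE 0.04). The exact two-sided permutation test gave p = 0.10, the smallest that 3 against 3 libraries allow, and 0.18 adjusted over 16 such tests.

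The TPM ratio of Tia1 to Tial1 was 1.615, 1.753 and 2.03 in Control and 2.05, 1.55 and 1.85 in Eda. It was 1.30, 1.596 and 1.38 in TDP-43 + EA, below all Control libraries, and 1.12, 0.717 and 1.01 in TDP-43 + EA + Eda, below all libraries of the other groups. On the log2 scale it was lower by 0.33 (SE 0.13) in TDP-43 + EA than in Control and by a further 0.61 (SE 0.21) with edaravone (exact permutation p = 0.10 each, adjusted 0.18). Tia1 was the more abundant of the pair by TPM in 11 libraries, but its excess was smallest in TDP-43 + EA + Eda, where replicate 2 held more Tial1.

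In the FET pair, the TPM ratio of Ewsr1 to Taf15 was 15.7, 17.2 and 19.4 in Control and 21.7, 18.1 and 19.1 in Eda. It was 27.0, 29.5 and 25.2 in TDP-43 + EA and 43.2, 36.4 and 44.4 in TDP-43 + EA + Eda. The ranges of Control and of both virus groups did not overlap, with steps of 0.65 (SE 0.11) and 0.60 (SE 0.11) on the log2 scale (exact permutation p = 0.10 each, adjusted 0.18). In Eda against Control none of the 3 ratios separated the groups (exact permutation p = 0.20, 0.90 and 0.30).

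**Figure D4:**
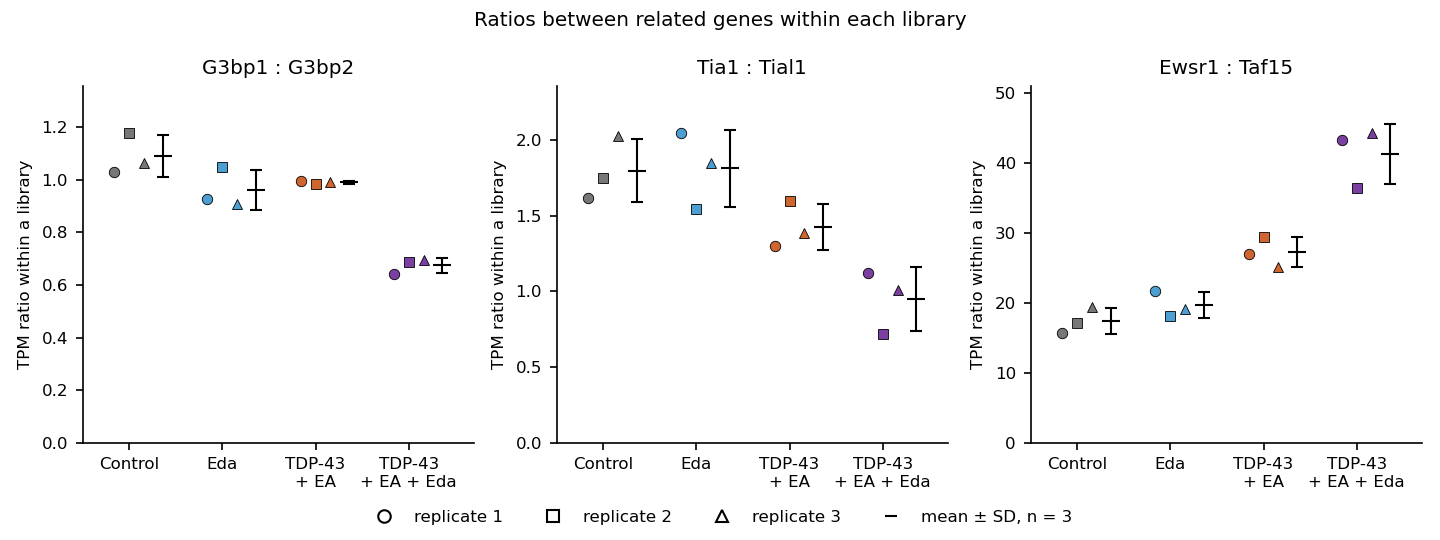
TPM ratios of G3bp1 to G3bp2, Tia1 to Tial1 and Ewsr1 to Taf15 within each of the 12 libraries, by group (vertical axes from 0; symbols mark the replicate number; bars are the mean ± SD, n = 3). The ratios in the first and the middle panel are lowest in TDP-43 + EA + Eda, at 0.642 to 0.694 and at 0.717 to 1.12, and the third is highest there, at 36.4 to 44.4.

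For 2 of these pairs, whose members moved apart, the sequences before the start sites are shown so that the members can be compared. RefSeq gives promoter windows for 7 of the 9 members in the assembly GRCr8, which differs from the Rnor_6.0 build of the expression tables. Ewsr1 and Taf15 had no entry. The 250 bases before the start follow for the 4 genes of the pairs, 5′ to 3′ on the gene's strand, with capitals for any match on either strand to TGACGTCA (cyclic AMP response element), GAANNTTC or TTCNNGAA (paired heat shock units), TGACNNNGC (core of the antioxidant response element) or CCAAT. These motifs were chosen after the sequences had been seen.
G3bp1, chr10:40087283-40087532, plus strand: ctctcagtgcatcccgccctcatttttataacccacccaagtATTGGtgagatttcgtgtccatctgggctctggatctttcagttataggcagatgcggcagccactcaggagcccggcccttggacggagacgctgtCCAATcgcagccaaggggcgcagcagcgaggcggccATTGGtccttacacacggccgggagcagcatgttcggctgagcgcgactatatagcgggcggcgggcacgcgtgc
G3bp2, chr14:16271406-16271655, plus strand: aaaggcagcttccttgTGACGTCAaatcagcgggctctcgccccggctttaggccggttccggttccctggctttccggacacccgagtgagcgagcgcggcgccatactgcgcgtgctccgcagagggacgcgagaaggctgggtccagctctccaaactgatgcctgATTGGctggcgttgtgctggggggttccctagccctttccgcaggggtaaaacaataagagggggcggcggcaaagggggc
Tia1, chr4:120410023-120410272, plus strand: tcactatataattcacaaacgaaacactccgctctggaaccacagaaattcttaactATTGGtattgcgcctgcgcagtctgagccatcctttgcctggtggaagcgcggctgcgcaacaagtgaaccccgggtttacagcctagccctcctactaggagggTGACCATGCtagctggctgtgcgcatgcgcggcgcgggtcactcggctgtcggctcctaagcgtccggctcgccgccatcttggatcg
Tial1, chr1:192461831-192462080, minus strand: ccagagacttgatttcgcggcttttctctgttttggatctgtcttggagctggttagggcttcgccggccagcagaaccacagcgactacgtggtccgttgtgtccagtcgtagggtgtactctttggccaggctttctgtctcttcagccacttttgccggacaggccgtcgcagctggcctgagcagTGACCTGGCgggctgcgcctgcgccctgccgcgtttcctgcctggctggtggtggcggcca
The windows of Tia1 and Tial1 each hold 1 match to TGACNNNGC, 88 and 61 bases before the start, which 10.1% of the 33469 windows of this length hold, and neither holds a heat shock pair. The G3bp2 window holds TGACGTCA, found in 1.59% of all windows, and 1 CCAAT match, and the G3bp1 window holds 3 CCAAT matches, a motif that 11385 of the 33469 windows hold. RefSeq lists 3 starts for G3bp2, and the one shown is the second of them by position. TGACGTCA was in neither of the other windows, and which start these cells used was not tested. Among the other members, Matr3 held 1 match to GAANNTTC, which 7.23% of windows hold, and Tardbp 1 CCAAT match. These matches are descriptions of letters, and the binding of a factor was not measured.

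Other genes of the same processes were followed in 5 lists of 111 symbols in all, read against 19.6% of genes tested risen in the first comparison and 15.4% in the second. Stress granule nucleators and partners other than the 9 members had 11 of 30 tested genes risen and 2 fallen in TDP-43 + EA against Control, with a list median of 0.16 on the log2 scale. Ybx1, a cold shock domain protein that binds mRNA, went from 185.1 ± 8.36 CPM to 262.6 ± 4.44 CPM (log2 fold change 0.50, edgeR adjusted p = 1.37e-04). Eif3b, a subunit of the translation initiation factor eIF3, rose by 0.49, Fmr1, the gene of the fragile X protein, by 0.61, and Elavl1, which encodes the mRNA-stabilizing protein HuR, by 0.47 on the log2 scale. With edaravone in stressed cells 14 of 30 rose and 1 fell (list median 0.24), but with library totals these counts were 3 and 2. On that scale 816 of the 13230 genes tested rose and 4516 fell, and the list median was −0.04 against −0.30 for all genes. The counts with library totals for the lists below are to be read against the same 816 and 4516. Elavl1 reached 241.5 ± 17.3 CPM (log2 fold change 0.69 over TDP-43 + EA) and the cap-binding protein gene Eif4e 369.5 ± 37.5 CPM (0.64), and both were called risen under all 5 scalings.

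FET, paraspeckle and hnRNP genes had 6 of 19 risen and 1 fallen with TDP-43 + EA, and 12 risen and 1 fallen with edaravone in stressed cells, against 4 and 4 with library totals. Hnrnpdl, a paralog of Hnrnpd that regulates splicing, moved most among the genes named from this list. It stood at 23.4 ± 3.97 CPM in Control, 76.7 ± 5.68 CPM in TDP-43 + EA and 151.3 ± 17.8 CPM in TDP-43 + EA + Eda. Its steps were 1.71 (edgeR adjusted p = 5.25e-07) and 0.98 (adjusted p = 1.55e-04) on the log2 scale. Hnrnpd rose by 0.88, Rbm14, a paraspeckle protein gene, by 0.68 and Hnrnpl by 0.51 with TDP-43 + EA. With edaravone Hnrnpab rose by 0.48 under TMM and was called under all 5 scalings, whereas Hnrnpd (0.18) and Hnrnpl (−0.07) were not called.

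Genes that control the initiation factor eIF2, whose phosphorylation triggers stress granules, were mixed, with 3 of 16 risen and 3 fallen in each of the first and the second comparison, the latter being 2 and 9 with library totals. Ppp1r15a, which encodes the stress-induced GADD34 subunit that leads a phosphatase to eIF2, stood at 87.3 ± 16.7 CPM in Control, 318.9 ± 29.0 in TDP-43 + EA and 667.7 ± 104.1 in TDP-43 + EA + Eda. Its log2 fold changes were 1.87 and then 1.07, both called and the second under all 5 scalings. Eif2b5, a subunit of the exchange factor eIF2B, went the other way, from 73.8 ± 4.31 CPM to 53.8 ± 3.39 and 28.1 ± 5.32 CPM (−0.45 and −0.94, both called). The heme-regulated eIF2 kinase gene Eif2ak1 fell by 0.42 with TDP-43 + EA, and Eif2b3 rose by 0.47. Processing body genes, which act in mRNA decay, had 3 of 14 risen and 1 fallen with TDP-43 + EA. Ago2 rose by 0.51, Tnrc6a by 0.52 and Dcp1a by 0.36, and Tnrc6b fell by 0.43. With edaravone 3 of 14 rose and 2 fell, Dcp1b among the latter (−0.91), and with library totals none rose and 4 fell.

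TDP-43 kinases, import receptors and clearance factors had 13 of 27 risen and none fallen with TDP-43 + EA (list median 0.33), and 12 risen and none fallen with edaravone, against 8 and 3 with library totals. Bag3, a co-chaperone of Hsp70 in selective autophagy, rose from 17.3 ± 1.79 CPM to 294.2 ± 25.7 and 643.9 ± 159.4 CPM, with steps of 4.08 and 1.13 on the log2 scale. Xpo1, the nuclear export receptor, rose from 104.9 ± 12.2 CPM to 564.7 ± 35.0 and 1151 ± 130 CPM (2.43 and 1.03). Tnpo1, an import receptor of FET and hnRNP proteins, rose by 1.04 and 0.64 and Kpna2, an importin alpha, by 1.03 in the first step with 0.10 in the second, which was not called. Hspb1, the gene farthest right in the plot of the lists and named after its values were seen, had no count in the 6 libraries without virus and a mean of 1.76 CPM in TDP-43 + EA, so its fitted change depends on the prior count. The list medians in Eda against Control lay between −0.07 and −0.01, with no gene called.

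**Figure D5:**
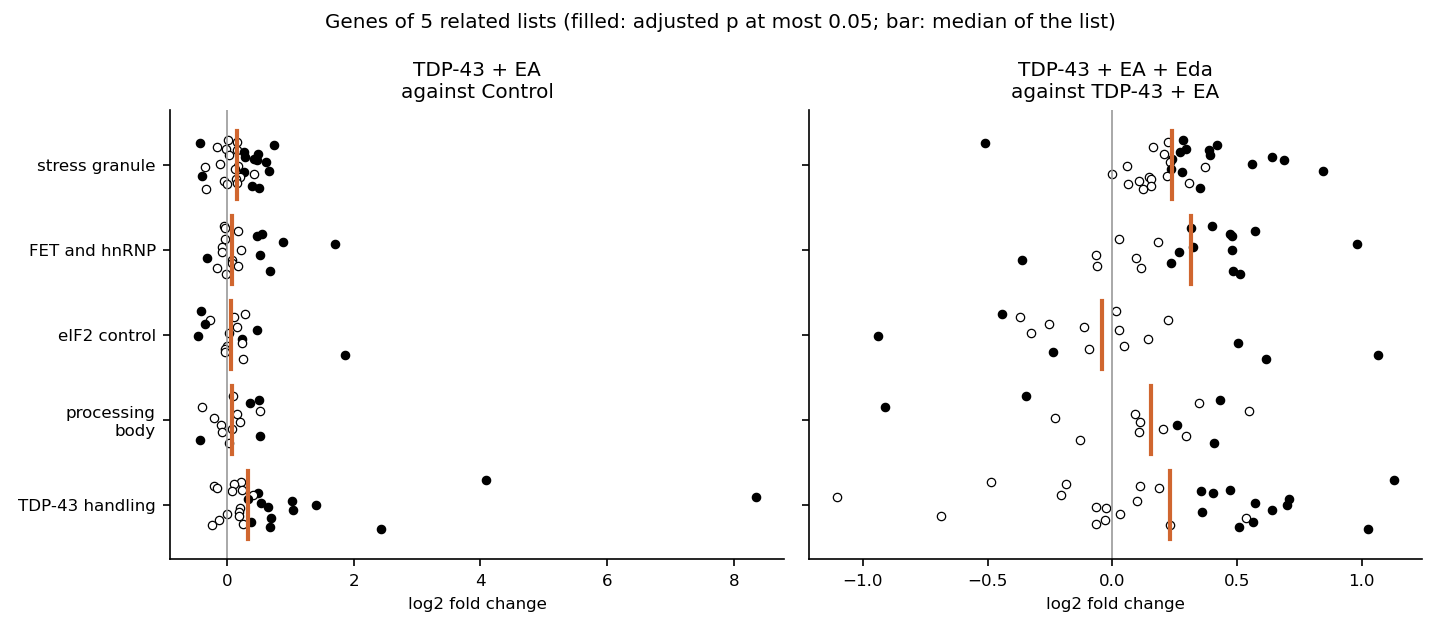
Fitted log2 fold changes of the tested genes of 5 lists (1 point per gene; filled points have an adjusted p of at most 0.05; the orange bar is the list's median), for TDP-43 + EA against Control and for edaravone in cells with TDP-43 + EA. In the list of TDP-43 kinases, import receptors and clearance factors, 13 of 27 points are filled to the right of 0 in the first panel and 12 in the second, and the point beyond 8 is Hspb1, which had no count without virus.

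Over the 12 libraries, the genes whose log2 CPM followed that of Tardbp most closely were Hspa1b (Pearson r = 0.996), Bag3 (0.996), Hsph1 (0.996), Zfand2a (0.996) and Mylip (0.995). Hspa1b, an inducible Hsp70, had mean levels of 12.6 CPM in Control and 10.3 CPM in Eda, and of 6628 and 13855 CPM in the virus groups without and with edaravone. Such correlations were common: 609 genes had an r of at least 0.95 and 30 of at least 0.99, and no p is given. The libraries with virus are also those with EA, and the part of this split in the correlations was not tested.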

How the data were processed

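Total RNA of the 12 samples was converted to cDNA with SMART-Seq v4 and Nextera XT, which do not mark strand, so antisense reads cannot be told apart. Per the labels, the authors processed reads with bcl2fastq 2.20 and DRAGEN on Rnor_6.0, and worked in R 3.6.0 with DESeq2 1.26.0. The authors deposited 1 table of expected counts (estimated reads per gene, not normalized) and 1 of TPM (per transcript length and per 1000000). All value columns were mapped to samples by their labels.

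Expected counts were rounded and tested with edgeR 4.0.16 in R 4.3.3 (filterByExpr, TMM, glmQLFit with robust estimation, glmQLFTest) in 1 fit of 12 libraries, with Benjamini-Hochberg adjustment over 13230 genes of 19455 with a count. Risen or fallen means an adjusted p of at most 0.05, and a DEG also a log2 change of 1 or more in either direction. Ratios of TPM were compared by exact permutation tests, and the code was tested on simulated data. Correlations used log2(CPM + 0.5). Counts of Tardbp per TPM were set against single-transcript genes with at least 100 counts. Alternatives were other scalings, no filter, only the groups compared, limma 3.58.1 on log2(TPM + 1) and log2(TPM + 0.1), a replicate block, DESeq2 1.42.0 and each library left out.

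The members and lists were chosen with earlier results of these data known. Named genes were the 9 members and, per list, the 4 with the smallest adjusted p in TDP-43 + EA against Control and the 2 with the smallest for edaravone in stressed cells. Same-numbered samples deviated together with every correlation over 0.1 for Control and Eda alone (0.117 to 0.183). The tests reported, the exact permutation tests among them, do not pair samples, also not between these groups. The replicate block is given as an alternative. Library totals of 17418137 to 43905611 counts limit the precision mainly for Taf15, Tia1 and Tial1.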

Additional observations from a re-analysis of the deposited data

Results flagged for a closer look

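The edaravone effect differed with and without TDP-43 + EA by the interaction test (edgeR, adjusted over all genes tested) for 3 of the 9 genes and for 10 of the other genes named. Of all genes tested, 8.42% passed it upward and 7.04% downward. Per list, the genes named include the 2 with the smallest adjusted p for edaravone in stressed cells. That comparison is part of the interaction, so the choice favoured passing it, and the 10 are a description. The log2 differences of the 3 members were 1.00 for Tardbp (adjusted p = 0.035), 0.85 for Ewsr1 (adjusted p = 6.74e-04) and 0.62 for G3bp2 (adjusted p = 0.0038). Of 22 alternatives, the call held in 22 for Ewsr1, in 18 for G3bp2 (lost with library totals and on TPM) and in only 7 for Tardbp. For Tardbp the effects with and without virus were measured on unlike reads, since only the libraries with virus hold the transgene. Among the other genes the difference was 0.74 for Eif4e (adjusted p = 0.0010), 0.83 for Elavl1 (adjusted p = 8.94e-04), 1.04 for Hnrnpdl (adjusted p = 0.0038), 1.32 for Bag3 (adjusted p = 0.0014), 0.86 for Xpo1 (adjusted p = 0.0016) and −0.72 for Eif2b5 (adjusted p = 0.0097), each past the threshold under all 5 scalings. The difference was 0.57 for Hnrnpab (adjusted p = 0.0026) and 0.56 for Rbm14 (adjusted p = 0.011), past the threshold under 3 of 5 scalings, and 0.39 for Ybx1 (adjusted p = 0.028) and 0.73 for Ppp1r15a (adjusted p = 0.033), past it under 2 of 5.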

How the results depend on the processing

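In TDP-43 + EA against Control, the 5 calls of risen members held in all 18 alternatives and none was called fallen, while Tia1 was called risen as well in 5 of them (upper-quartile factors, only the groups compared, the replicate block, DESeq2 and shrunken DESeq2), which made 6. In the comparisons with TDP-43 + EA + Eda, the calls of Ewsr1, G3bp2 and Tial1 against Control and of Ewsr1 and G3bp2 against TDP-43 + EA held in all 18, whereas members with small changes changed sign under the settings given next. For edaravone in stressed cells, the members' changes relative to the median of all genes are given above. Why the TMM factors differed, and why signs changed with a library left out, was not tested.

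Members fallen against TDP-43 + EA numbered 3 with library totals, 3 and 3 with limma on log2(TPM + 1) and log2(TPM + 0.1), and 1 with limma on all genes listed, against 0; against Control they numbered 2, 3, 3 and 2. Of all genes tested, 34.1%, 32.4%, 32.6% and 8.8% fell against TDP-43 + EA in these settings and 45.1%, 47.6%, 47.8% and 16.4% against Control. Members risen by interaction numbered 1 in each of these 4 settings, where 2.85%, 3.11%, 2.85% and 0.48% of all genes rose, and 2 to 3 with a library left out. In the same order of settings, the log2 fold change against TDP-43 + EA was −0.17, −0.13, −0.16 and −0.13 for Taf15, −0.23, −0.23, −0.23 and −0.23 for Matr3, −0.25, −0.22, −0.22 and −0.22 for G3bp1, and −0.11, −0.071, −0.073 and −0.071 for Atxn2. Against Control it was −0.31, −0.36, −0.37 and −0.36 for Matr3, −0.16, −0.21, −0.22 and −0.21 for Tia1, and, on TPM, −0.0074, −0.0075 and −0.0074 for G3bp1. The interaction was −0.17, −0.16, −0.17 and −0.16 for Matr3, −0.060, −0.055, −0.055 and −0.055 for G3bp1, and −0.017, −0.0054, −0.0058 and −0.0054 for Atxn2. With upper-quartile factors Matr3 was −0.033 against TDP-43 + EA and −0.044 against Control, and G3bp1 −0.051 against TDP-43 + EA. Atxn2 against Control was 0.045 with RLE, 0.040 with only the groups compared, 0.043 with DESeq2 and 0.042 with shrunken DESeq2. G3bp2 in Eda against Control was 0.014, 0.014 and 0.014 on TPM.

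With a library left out, Matr3 ranged from −0.034 to 0.13 against TDP-43 + EA and from −0.068 to 0.093 against Control, G3bp1 from −0.010 to 0.082 against TDP-43 + EA, and Atxn2 from −0.10 to 0.036 against Control. In Eda against Control, Tia1 ranged from −0.24 to 9.77e-05 and G3bp2 from −0.092 to 0.018.

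Over all genes, Eda against Control gave 1 call without a filter, 1 with only the groups compared, 3 with limma on all genes, 8 with DESeq2, 8 with shrunken DESeq2 and 0 to 1 with a library left out. The interaction gave 3304 calls with library totals, 3229 and 3187 with limma on log2(TPM + 1) and log2(TPM + 0.1), and 1356 to 2607 with a library left out (the fewest without replicate 1 of Control). The edgeR test as reported called 1114 risen and 931 fallen, but 377 and 2927 with library totals and 1360 and 781 with RLE; TDP-43 + EA + Eda against Control called 3581 and 4027, but 2325 and 5965 with library totals.

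The counts of Tardbp per TPM are fixed by the 1 Tardbp transcript in the annotation, so the 4 tests of this quantity among the 16 exact tests could show nothing and nothing is drawn from them. Without single-transcript genes as a reference, the log2 differences were 0.066, −0.020, 0.046 and −0.0013 with library totals and 0.108, 0.258, 0.365 and −0.031 with TMM-scaled CPM, for TDP-43 + EA against Control, edaravone in stressed cells, TDP-43 + EA + Eda against Control and Eda against Control. With a pseudocount of 1 they were 0.031 for the first and 0.035 for the third.

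With the replicate block, 2777 genes were called risen and 2726 fallen in TDP-43 + EA against Control, and Tia1 was called there (0.44, adjusted p = 0.047). In Eda against Control the block gave 0 calls, as without it. For edaravone in stressed cells it gave 2342 risen and 2270 fallen, against 2038 and 1989 without it. The interaction gave 1496 risen and 1210 fallen with the block, against 1114 and 931 without it. No source used here states which experiment a number marks, although the sample codes run in order of the number. Outside Control and Eda the correlations did not all pass 0.1, a cutoff that cannot show the samples to be unpaired. The fit without the block was kept for all comparisons. All 36 sample comparisons correlated best with their own number, with same-number correlations of 0.052 to 0.183 and others of −0.139 to 0.017, a hint from the data that a number may mark a shared experiment. With 110 to 268 estimated counts per library in the last group, Taf15 had a wide interval, and smaller changes were not detectable at this depth.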
